A study of Mus musculus with 6 samples.

Results

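Cytosolic ribosomal protein genes were followed in mouse CD4 T cells that carried the transcriptional repressor Blimp-1 or an empty vector. Members were the rows of the deposited expression table whose symbol begins with Rpl or Rps and a digit, or is Rplp0, Rplp1, Rplp2 or Rpsa. Ribosomal S6 kinases (10 symbols) and symbols marked as pseudogenes (3) were dropped. This gave 84 of 22414 symbols, held by 102 of 29868 transcript rows. They were 45 large subunit proteins, 31 small subunit proteins, 7 paralogs and Rps19bp1, which binds a ribosomal protein and is not one.

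All cells were wild type and came from C57/BL6 mice. Sorted naive CD4 T cells were activated on antibodies to CD3 and CD28 for 36 hours with IL-4 and IFN-gamma blocked (the Th0 condition), then transduced with MigR1, a retrovirus that carries a GFP marker, or with MigR1 holding the Blimp-1 cDNA. GFP-positive cells were sorted 2 days later, while another label gives 3 days of activation for all samples. By the labels both groups were activated, transduced and selected alike, and Blimp-1 came from a viral vector and not from its own locus. Each vector had 3 libraries, numbered 1 to 3. Values are FPKM, reads scaled to transcript length and to library size, so they are shares of an RNA pool and not amounts per cell, and fewer cells of a type cannot be told apart from less RNA per cell.

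The ribosome of the cytosol joins a small subunit, which reads the mRNA, to a large subunit, which forms the peptide bond. Its protein genes are transcribed at high levels in growing cells, and activated T cells expand their ribosome pool as they enlarge and divide. Many of these mRNAs begin with a run of pyrimidines at the 5′ end, the TOP tract, through which mTORC1 and Larp1 control their translation. Translation was not measured in these libraries.

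Pyrimidine runs were found at the annotated start of many members. A promoter was matched for 60 tested members in RefSeq's table on the build GRCm38.p6, and the longest tract that began with C within 10 bases of the start was measured. It reached 8 bases or more in 20 of 60 members (33.3%) against 7.29% of 7357 other tested genes, and 5 bases or more in 55.0% against 30.6%. This rule was loosened after a first count had been seen: when a C that follows another pyrimidine was not allowed to begin a tract, 13 members (21.7%) reached 8 bases against 7.05%, and 43.3% reached 5 bases against 27.8%. The 3 longest tracts of the large subunit and 2 of the 3 longest of the small subunit are shown. Rps12, whose tract is as long as that of Rps18 (11 bases) but differs in sequence, is not. Windows run from 60 bases before the start to 15 after it, with the tract in capitals. That of Rpl27a runs on past the end of its window.
Rpl27a, chr7:109519135-109519209, plus strand: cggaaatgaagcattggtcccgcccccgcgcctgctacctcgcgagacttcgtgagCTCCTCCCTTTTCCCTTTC
Rpl35, chr2:39005117-39005191, minus strand: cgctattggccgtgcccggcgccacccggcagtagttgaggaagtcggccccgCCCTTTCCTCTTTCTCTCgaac
Rpl15, chr14:18270972-18271046, minus strand: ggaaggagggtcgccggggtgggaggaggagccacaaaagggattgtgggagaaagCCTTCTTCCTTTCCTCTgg
Rps10, chr17:27635230-27635304, minus strand: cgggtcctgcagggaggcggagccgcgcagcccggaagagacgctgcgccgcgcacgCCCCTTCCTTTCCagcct
Rps18, chr17:33955651-33955725, minus strand: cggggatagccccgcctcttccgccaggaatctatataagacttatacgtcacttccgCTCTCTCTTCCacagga

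Other short motifs were searched on both strands of 300 bases, from 250 before the start to 50 after it. The ETS core CCGGAA stood in 53.3% of member promoters against 31.0% of the other genes, and the YY1 motif AAGATGGC in 8.33% against 5.29%. The TATA box TATAAA was found in 10.0% against 6.36%, the E-box CACGTG in 5 of 60 members against 810 of 7357, and the STAT motif TTCNNNGAA in 5.0% against 7.0%. The motif AGNGAAAG, which Blimp-1 can bind, was found in 11 members (18.3%) against 7.24%. Read on its opposite strand this motif is mostly pyrimidines, so a match can overlap the start tracts described above. In Rpl35 a match lies within the tract shown. How many of the 11 members match only in a tract was not counted, and an excess apart from the tracts was not tested. Of these 11 members, 2 (Rpl39 and Rps2) were higher with Blimp-1 in all 3 replicate pairs, 1 (Rpl31) was lower in all 3, and 8 were mixed. Over all tested symbols 22.9% were higher and 22.8% lower in all 3 pairs. The 11 include Rpl26 and Rps27, for which nearly all FPKM is listed under a copy, given below. A match is a string in a window and says nothing on binding, and no factor's binding was measured in these libraries.

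The labels held in the data. Prdm1, the gene of Blimp-1, had levels of 0.996, 2.03 and 1.38 FPKM in the empty vector libraries and of 9.91, 12.8 and 9.45 FPKM in the Blimp-1 libraries. All 8 CD4 T cell markers were detected, and markers of CD8 T cells, dendritic cells, granulocytes and red cells summed to under 1 FPKM in each library. Only Alas2 of 5 red cell genes and Cd8a of 2 CD8 T cell genes had values, so the others could not be judged. The myeloid sum lacked Lyz2, which also had no values. B cell markers summed to 1.63 to 4.79 FPKM and 1.48 to 5.72 FPKM under the empty and Blimp-1 vectors, and myeloid markers to 2.01 to 2.66 and 2.12 to 3.38 FPKM. The natural killer cell list (Klrd1 was the only gene of 3 above 1 FPKM) summed to 3.19 to 26.2 FPKM with the empty vector and 12.8 to 30.4 with Blimp-1, and its part in the results was not tested. Depth in M reads, estimated from the FPKM value that 1 read is worth, spanned 17.1 to 38.6 for the empty vector and 33.9 to 46.4 for Blimp-1.

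Ribosomal protein transcripts made up close to the same share of the pool under both vectors. They held 31.8%, 29.6% and 30.4% of total FPKM in empty vector replicates 1 to 3, and 32.3%, 29.5% and 31.6% in Blimp-1 replicates 1 to 3. The groups overlapped, and replicate 2 was lowest under both vectors. The difference of means was 0.543 percentage points (30.6% ± 1.14 against 31.1% ± 1.46, SD, n = 3; two-sided exact permutation p = 0.8, where the smallest p of the design is 0.1). The direction depended on how transcripts were weighted. FPKM divides by length and so gives these short transcripts more weight than their reads have. With each transcript weighted by its GENCODE length, which approximates a share of reads, members held 12.8% to 15.1% and the difference turned to -0.083 points (exact permutation p = 0.9, n = 3 a group).

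**Figure D1:**
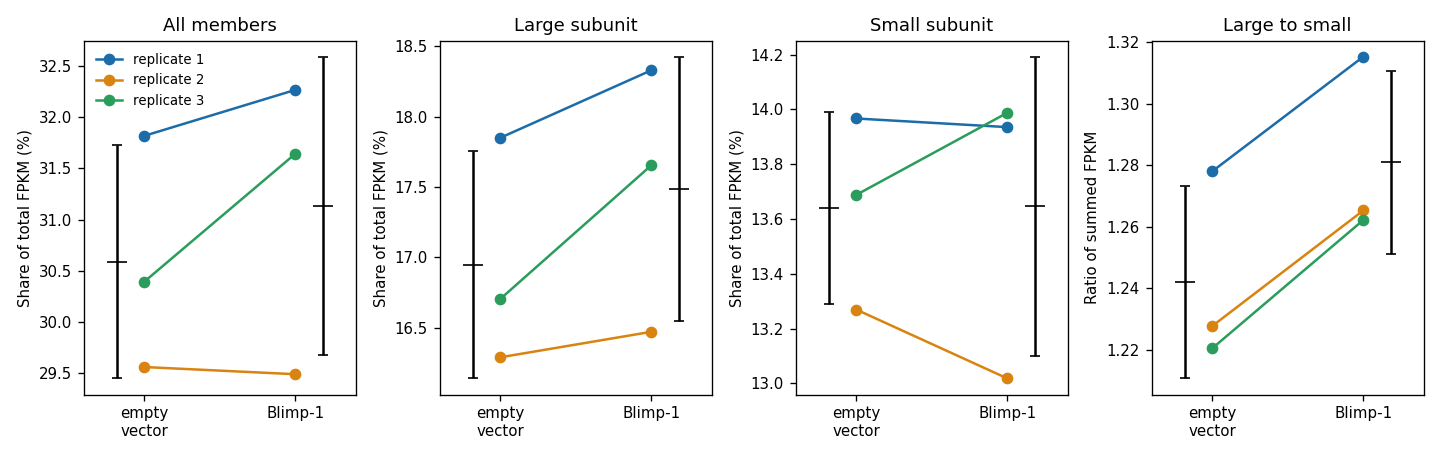
Share of total FPKM held by all members, by the large subunit and by the small subunit, and the ratio of the large to the small subunit sum (y axes, not starting at 0), for the empty vector and Blimp-1 (x axis). Lines join libraries with the same replicate number, and black bars give the mean and SD of 3 libraries; the ratio is higher with Blimp-1 along each line, while the groups overlap.

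Split by subunit, the large subunit held 17.8%, 16.3% and 16.7% with the empty vector and 18.3%, 16.5% and 17.7% with Blimp-1. It was higher with Blimp-1 in each of the 3 pairs, by 0.538 points on average (exact permutation p = 0.6, n = 3 a group; exact sign-flip p over the 3 pairs = 0.25, the smallest possible). Weighted by length, this difference was 0.067 points, and pair 2 was lower with Blimp-1. The small subunit held 13.97%, 13.27% and 13.69% against 13.93%, 13.02% and 13.99%, a difference of 0.006 points (exact permutation p = 1, n = 3 a group). Weighted by length it was -0.150 points and lower with Blimp-1 in all 3 pairs (exact permutation p = 0.6, n = 3 a group).

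The ratio of the large to the small subunit sum, a measure picked out after the values had been seen, was 1.28, 1.23 and 1.22 with the empty vector and 1.32, 1.27 and 1.26 with Blimp-1. It was higher with Blimp-1 by 2.92%, 3.07% and 3.43% in pairs 1, 2 and 3. The groups overlapped, and neither test can reach 0.05 in this design. The exact permutation p was 0.3 (smallest possible 0.1, n = 3 a group). The exact sign-flip p was 0.25, the smallest that 3 pairs allow. With length weighting the ratio was again higher in each pair, by 2.56%, 3.32% and 3.66%.

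Single members spanned a wide range of levels. Of the 76 subunit proteins, 66 were at 1000 FPKM or more, with a median of 2007 FPKM against 11.4 FPKM over all tested symbols. The highest mean levels per length were those under Rps27 (5225 FPKM), the stalk protein Rplp1 (4941), Rpl41 (4672), Rpl32 (4377) and Rpl39 (4312). Among the lowest were Rpl26 (6.84 FPKM), Rpl34 (18.7), Rps15a (177) and Rpl22 (299).

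**Figure D2:**
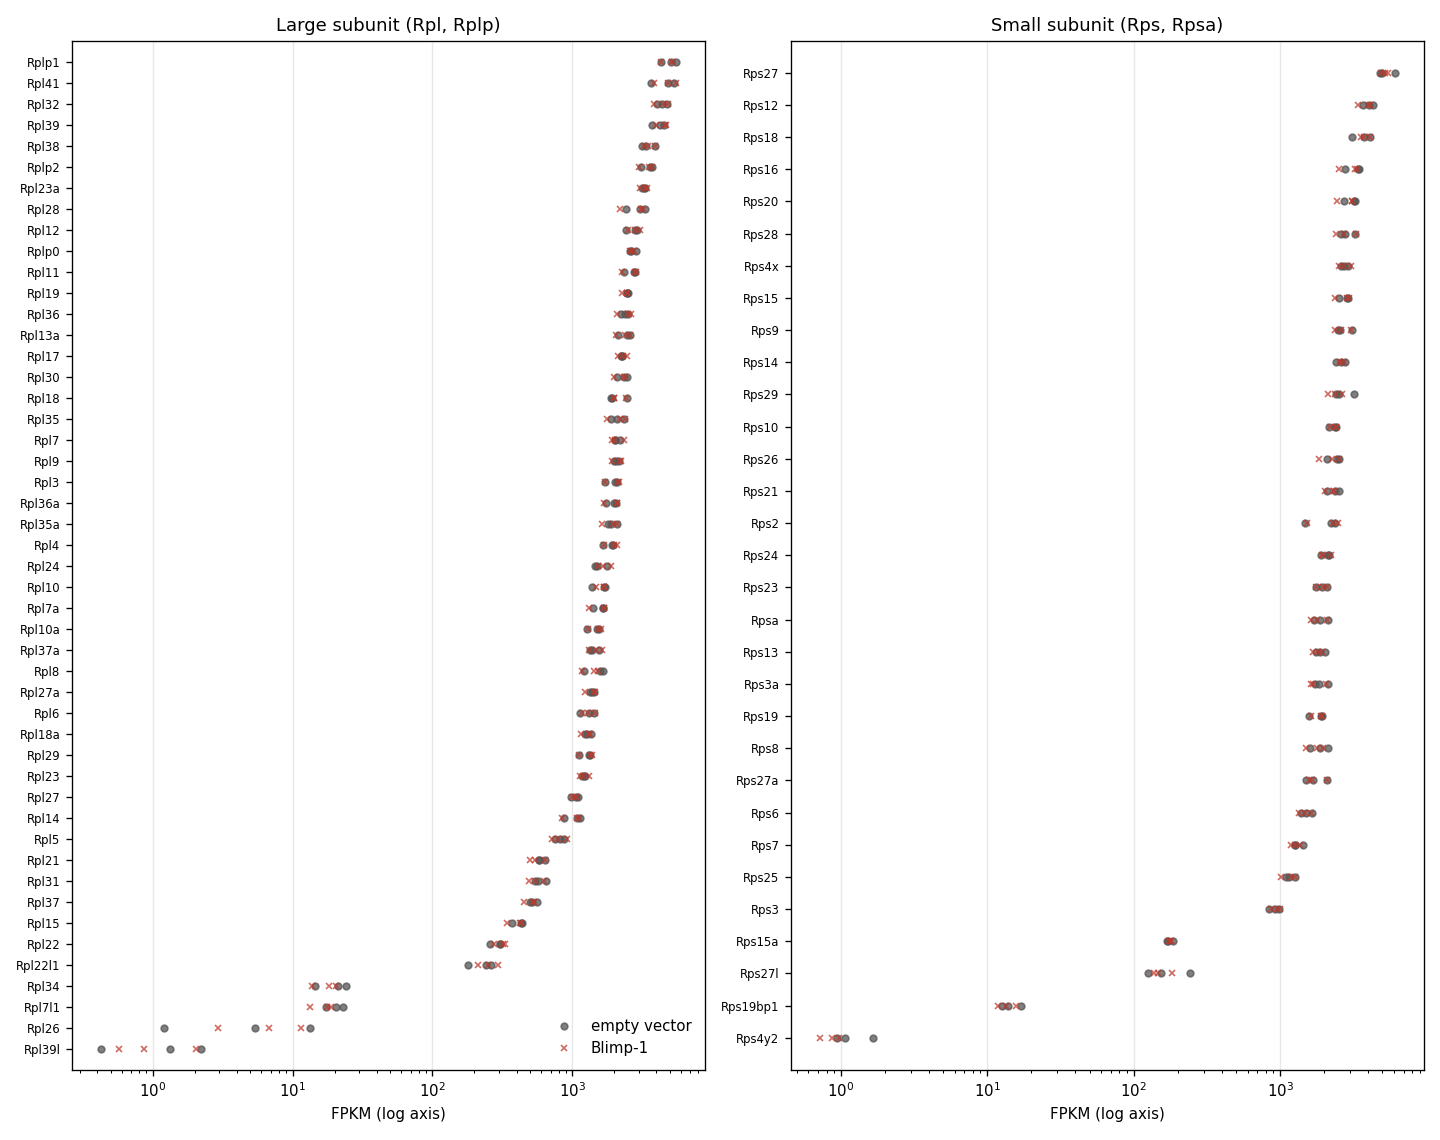
FPKM on a log axis (x) of the members reported here with a mean of 0.5 FPKM or more (y), in 3 empty vector libraries (circles) and 3 Blimp-1 libraries (crosses), by subunit, with Rps19bp1 drawn beside the small subunit. Most members lie above 1000 FPKM in all 6 libraries, and circles and crosses overlap for each tested member drawn.

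No member was called between the vectors. Of the 84 members, 81 passed the filter of 1 FPKM in at least 3 libraries; Rpl10l was listed at 0, and Rpl3l and Rps4y2 were at most 0.075 and 1.67 FPKM. In limma on log2(FPKM + 1), 0 of 81 members had an adjusted p under 0.05, as 0% of the 10874 tested symbols did. Prdm1 itself, though higher in all Blimp-1 libraries, was not called in this fit (limma adjusted p = 0.063, and 0.0095 with the replicate block). At an unadjusted p under 0.05 there were 0 members against 1.13% of all. With the replicate number as a block, 0 members were called against 0.0184% of all, and 4 members passed an unadjusted p of 0.05 against 20% of all. With each library first scaled to its ribosomal protein sum, 0 members were called without the block (0% of all) and 0 with it (0.0184%). At an unadjusted p under 0.05 there were then 0 members against 0.837% of all without the block, and 4 against 19.7% with it. In no member did the libraries of one vector lie wholly above or below those of the other, against 2.35% above and 2.37% below for all tested symbols.

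Differences were small and the design bounds them loosely. The median log2 difference of the 81 members, Blimp-1 minus empty vector, was -0.01, as was that of all tested symbols. It was within 0.1 in either direction for 71 members, against 47.0% of all tested symbols. The 95% confidence interval of a member reached a median of 0.32 to either side. FPKM of abundant transcripts carries less counting error, and non-members at 1000 FPKM or more lay within 0.1 in 15 of 26 cases.

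Signs over the pairs were counted for each subunit. Over all members, 13 were higher in 3 of 3 pairs (22.9% of all tested symbols were) and 21 were lower (22.8% were). Among large subunit proteins 8 were higher and 5 lower in 3 of 3 pairs, of 45. Among small subunit proteins 4 were higher and 15 lower, of 31. The difference between the subunits was not tested. With each library scaled to its ribosomal protein sum the counts were 11 and 5 for the large subunit and 4 and 13 for the small, against 26.2% higher and 18.6% lower over all tested symbols.

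**Figure D3:**
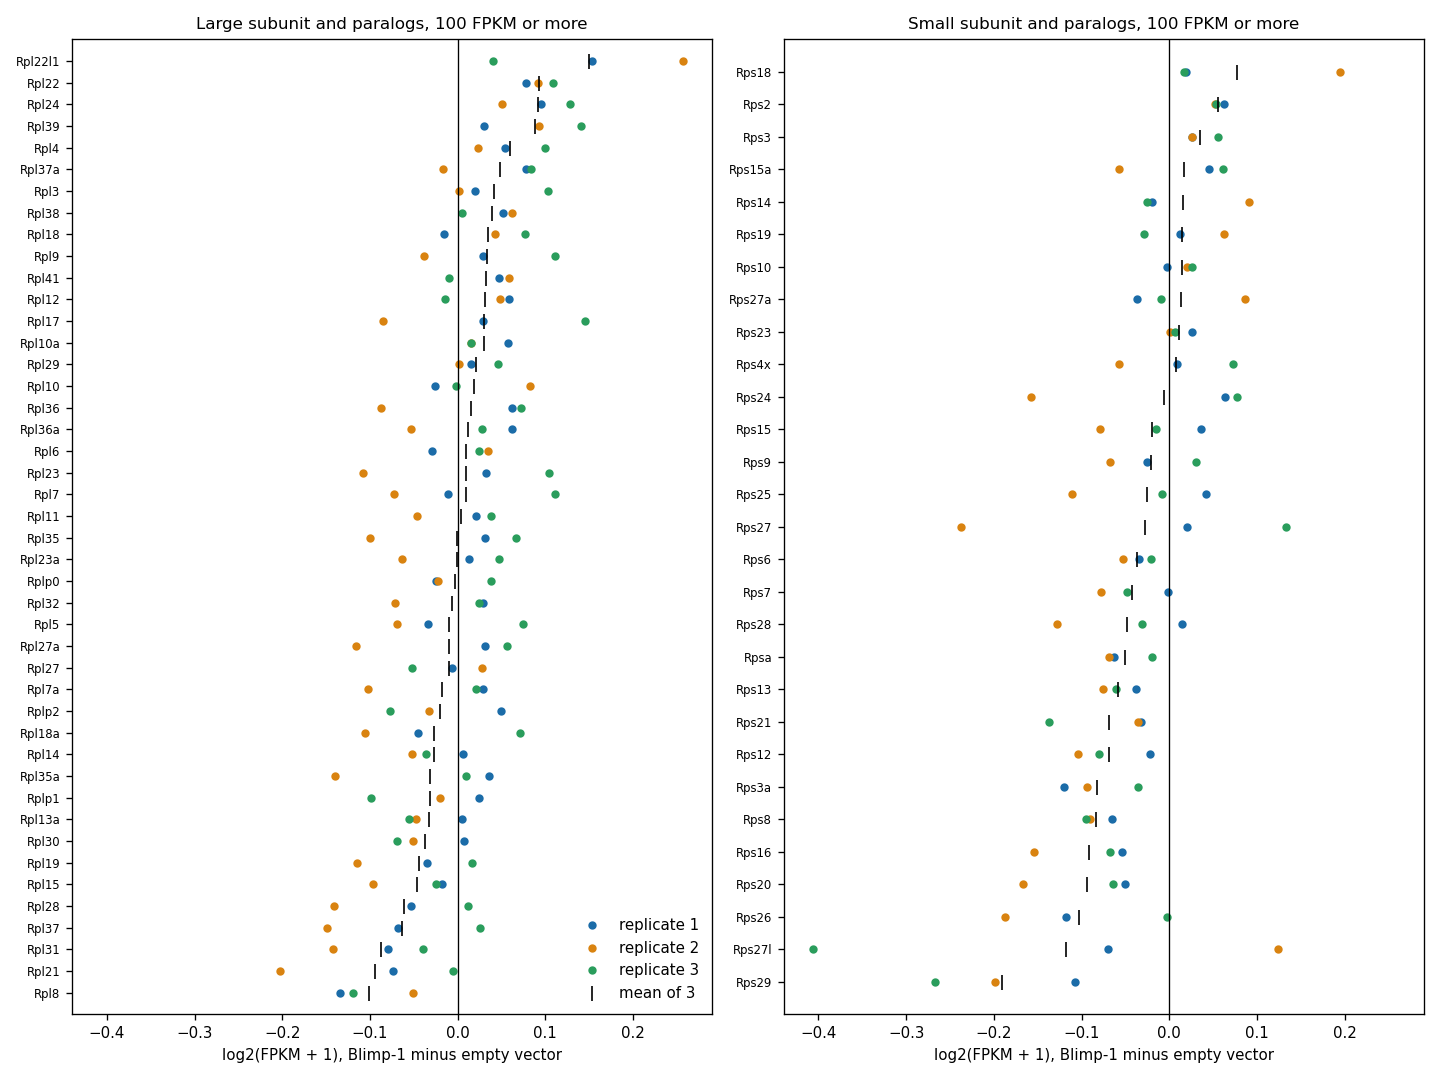
Difference in log2(FPKM + 1), Blimp-1 minus empty vector (x), for the tested members reported here at 100 FPKM or more (y), with 1 coloured point for each replicate pair and a bar at the mean of 3. Most means lie within 0.1 of 0; Rps29 lies lowest in the small subunit panel and Rpl22l1 highest in the large subunit panel.

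Among small subunit members the lowest difference was that of Rps29. This zinc-binding protein had 2538, 2426 and 3189 FPKM under the empty vector against 2355, 2114 and 2650 FPKM with Blimp-1. It was lower in each pair, though Blimp-1 replicate 3 lay above 2 of the empty vector libraries (log2 difference -0.19 ± 0.15 SE; limma adjusted p = 0.998, and 0.170 with the block). Rps26 was also lower in each pair, with a mean log2 difference of -0.10. All 50-base windows of the coding sequence of Rps29 recur in other annotated transcripts, so reads of 50 bases from it had more than 1 possible source.

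Higher values in all 3 pairs were found for Rps18, at 4086, 3094 and 3724 FPKM against 4142, 3543 and 3768 FPKM. Its mean difference of 0.08 came mostly from pair 2 (0.02, 0.19 and 0.02 in pairs 1 to 3). Rps2, Rps3 and Rps23 were the other small subunit members above 0 in each pair. Rps3, which also acts in DNA repair and NF-kappaB signalling, had a mean difference of 0.04. Rps6, the substrate of the S6 kinases, was at -0.04 and lower in each pair. Rps19, whose human counterpart is mutated in Diamond-Blackfan anaemia, was at 0.02 with mixed signs.

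Differences of large subunit members were similar in size to those above. Rpl22, which binds RNA and is needed for the development of alpha-beta T cells, had 305, 260 and 304 FPKM under the empty vector against 322, 277 and 328 with Blimp-1. Its paralog Rpl22l1 was at 264, 178 and 242 FPKM against 293, 213 and 249. Both were higher with Blimp-1 in each pair, by 0.09 and 0.15 on the log2 scale (limma adjusted p = 0.998 each, and 0.360 and 0.274 with the block). Rpl24 (0.09), Rpl39 (0.09), Rpl4 (0.06) and Rpl3 (0.04) were also above 0 in each pair. Rpl8 (-0.10) and Rpl21 (-0.09) were below 0 in each pair. The lowest difference of the large subunit proteins was that of Rpl34, listed at 24.3, 14.4 and 21.0 FPKM against 20.4, 13.7 and 18.2 FPKM. It was lower in each pair with overlapping groups (log2 difference -0.17 ± 0.22 SE; limma adjusted p = 0.998, and 0.255 with the block), at a level far under that of its copy, given below.

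Rpl7l1, a paralog of Rpl7, had the lowest difference of all tested members. It was at 17.5, 20.5 and 22.9 FPKM against 13.4, 18.9 and 17.6 FPKM, lower in each pair with overlapping groups (log2 difference -0.28 ± 0.17 SE; limma adjusted p = 0.998, and 0.185 with the block). Rpl7 itself was at 2032, 2023 and 2187 FPKM against 2017, 1924 and 2361 FPKM, with mixed signs. Rps27l, a p53-responsive paralog, ranged from 126 to 243 FPKM with the empty vector and from 137 to 183 with Blimp-1. Rpl39l, a paralog best known from the testis, stayed at or under 2.23 FPKM.

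The stalk, which recruits translation factors to the large subunit, did not move in one direction. Rplp0 was at 2837, 2650 and 2577 FPKM against 2789, 2609 and 2646, with a log2 difference of -0.00. Rplp1 and Rplp2 were at -0.03 and -0.02, each with 1 pair higher and 2 lower. Rpl5 and Rpl11, which bind Mdm2 when ribosome assembly is disturbed, were at -0.01 and 0.00. The list of Mdm2 and p53 targets had 8 of 12 tested genes higher in 3 of 3 pairs and none lower, beside 22.9% and 22.8% of all tested symbols, with a median difference of 0.26. In 3 of the 12 all Blimp-1 libraries lay above all empty vector libraries (2.35% of all tested symbols), and 0 of 12 were called by limma with or without the block.

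Replicate number went with larger differences than the vector did. Among the 81 tested members the median absolute log2 difference was 0.06 between vectors within a number and 0.20 between numbers within a vector. In 70 of 81 members replicate 2 was the lowest of 3 under both vectors. Rps2 showed this most plainly among abundant members, at 1468 FPKM in empty vector replicate 2 and 1522 in Blimp-1 replicate 2, against 2214 to 2484 in the other 4 libraries. The count of symbols lowest in replicate 2 was not made over all tested symbols. Over all tested symbols, libraries with the same number also deviated together (r = 0.75, 0.79 and 0.66). Total FPKM, too, was lowest in replicate 2 under both vectors. What a number marks was not given in the labels, and its part in these levels was not tested.

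Several low members have a near-identical copy that the table lists at a high level. Ribosomal protein mRNAs are often copied back into the genome, and such retrocopies can differ from the parent at a few bases. A stretch of 50 bases, the read length, cannot tell 2 transcripts apart where they are the same. The pairs are shown over 50 coding bases, parent first, with a differing base in capitals; positions count from the A of the start codon.
Rpl34: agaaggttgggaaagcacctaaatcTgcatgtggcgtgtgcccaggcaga
Rpl34-ps1: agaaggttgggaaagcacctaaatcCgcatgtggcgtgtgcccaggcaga
Rpl26: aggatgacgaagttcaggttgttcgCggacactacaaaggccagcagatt
Gm15772: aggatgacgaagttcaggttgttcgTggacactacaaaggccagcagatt
Rpl30: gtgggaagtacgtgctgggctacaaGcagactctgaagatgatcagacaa
Gm12191: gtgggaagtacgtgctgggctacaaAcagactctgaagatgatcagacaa

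Rpl34 and Rpl34-ps1 differed at 2 of 354 coding bases (T132C is the one shown), Rpl26 and Gm15772 at 2 of 438 (C177T shown), and Rpl30 and Gm12191 at 1 of 348 (G96A). The coding sequences of Rps27 and Rps27rt were the same over all 255 bases. The table listed Rpl34 at 18.7 FPKM and Rpl34-ps1 at 2954, and Rpl26 at 6.84 and Gm15772 at 2511. Rps15a, at 177 FPKM, shared 55.2% of its 50-base coding windows with its copy Gm11968 (210 FPKM) and 38.1% with Gm13253 (136 FPKM). Under the symbol Rpl30, 99.4% of FPKM sat on the accession now named Gm12191, and under Rps27, 98.8% on that of Rps27rt. Rpl13 stood under a joint symbol outside the naming rule, at 2435 FPKM. The coding parts of 83 members were cut into 50-base windows: 67 members shared over 50% of them with another annotated gene, and the median share was 90.3%. Over whole transcripts, as first computed, 44 of 84 members shared over 50% and the median was 52.4%.

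**Figure D4:**
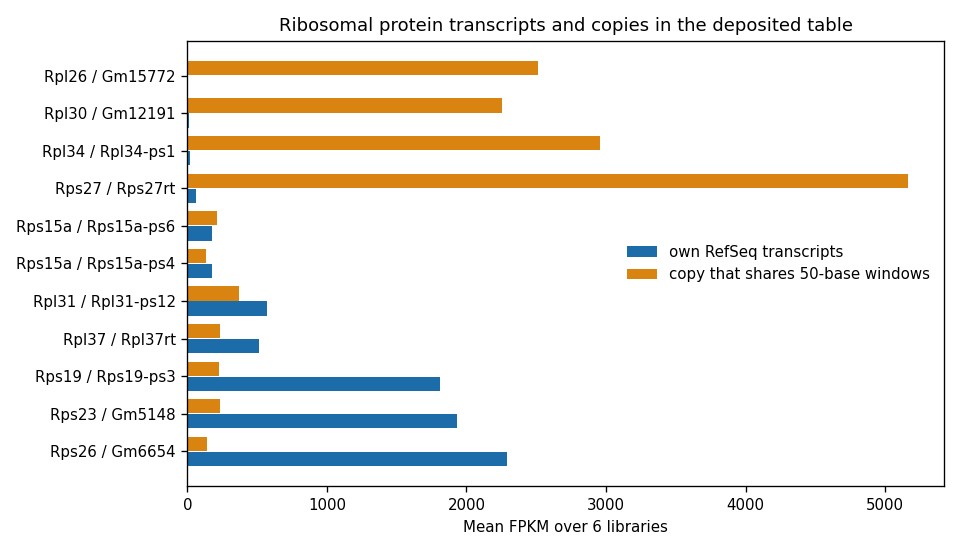
Mean FPKM over 6 libraries (x, from 0) of a member's own RefSeq transcripts and of a copy that shares its 50-base windows (y, member / copy). For Rpl26, Rpl34, Rpl30 and Rps27 nearly all FPKM is listed under the copy.

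Rpl13 and some of the copies under other symbols (Gm15772, Rpl34-ps1, Gm11968, Gm13253 and C330021F23Rik) were then added to the members. Copies such as Rpl31-ps12, Rpl37rt and Rps19-ps3 were not added, and those of Rpl30 and Rps27 were already counted under these symbols. The shares rose to 31.2% to 33.5% with the empty vector and 31.1% to 34.0% with Blimp-1. The difference was 0.623 points (exact permutation p = 0.8, n = 3 a group). Rpl26, at so low a level, gave pair differences of 0.96, 0.84 and -0.87, and is the 1 member called in any fit: with the block and without replicate 3, where limma called 8.22% of all tested symbols. Gm15772 itself was at 2453, 2385 and 2654 FPKM against 2448, 2396 and 2732, a log2 difference of 0.02.

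Other genes of translation were read from lists, and over all tested symbols 22.9% were higher and 22.8% lower in 3 of 3 pairs. Of 18 other TOP mRNA genes, 9 were higher in 3 of 3 pairs and 1 lower, with a median difference of 0.06; among them Npm1, a nucleolar chaperone, was at 823, 814 and 791 FPKM against 991, 889 and 911 FPKM, with no overlap (log2 difference 0.20; limma adjusted p = 0.998, and 0.172 with the block). Of 16 genes of TOP mRNA and mTORC1 control, 5 were higher and 3 lower in 3 of 3 pairs. Of 12 chaperones and importers of ribosomal proteins none was higher and 2 were lower. Of 8 tested regulators at ribosomal protein promoters 3 were higher (Yy1, Gabpa and Sp1) and 1 lower (Max). Outside the naming rule, Gnb2l1, which encodes the scaffold protein of the small subunit, was lower in each pair (-0.02), and Fau was mixed (0.05). None of these genes was called by limma with or without the block.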

How the data were processed

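RNA-seq libraries from 6 samples, 3 per vector, were compared. The authors deposited 1 table of FPKM per RefSeq transcript; per the submitters' processing notes, the tools included Partek 6.6, Cufflinks 2.2 and CASAVA 1.8.2 on the build mm9 (aligner, annotation release: not given in the sources used here). FPKM was summed per symbol. Symbols at 1 FPKM in at least 3 libraries (10874) entered a limma fit (3.58.1, R 4.3.3) of log2(FPKM + 1), with a trended prior variance and Benjamini-Hochberg adjustment at 0.05; the replicate block was an alternative. The fit was tested on simulated data whose noise was independent between libraries, without the deviations shared by replicate number that are given below. Shares were compared by exact permutation. Libraries with the same number deviated together from their group means (r = 0.75, 0.79 and 0.66), so numbers were taken as pairs. Some genes are counted but not reported here by name. Members and lists were chosen with earlier results of these data known. Named members were those highest in level, those with the largest differences of 1 sign in 3 pairs, paralogs, the stalk and members with known other roles.

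Length weighting, copies added, names by accession, blocked fits without a pair, and the subunit ratio were chosen after seeing the data. Lengths came from GENCODE vM21 (matched for 95.2% of rows) and are not the authors' own. The following rules were changed after their first results were seen, and both versions are printed: the start of a pyrimidine tract, and window sharing over coding parts in place of whole transcripts, whose GENCODE UTRs differ in length from RefSeq's.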

Additional observations from a re-analysis of the deposited data

How the results depend on the processing

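The count of members called stayed at 0 with each of these changes (pseudocounts of 0.1 and 0.01, no filter, a filter at 5 FPKM, the highest transcript, trimmed mean of M values scaling, replicate block, and each library or pair left out), and was 1 (Rpl26) in the replicate block without replicate 3, both as deposited and relative to the ribosomal protein sum. Over all genes 0 were called, against 1 with trimmed mean of M values scaling, 2 with the replicate block, and 2, 4 and 894 with the block without replicates 1, 2 and 3; leaving out libraries or pairs gave 0 to 1. The share difference turned with length weighting (all members -0.083, small subunit -0.150) and, for the small subunit, with the highest transcript in place of the sum (-0.0087). Leaving out libraries or pairs gave -0.023 to 1.36 points for all members, 0.115 to 1.04 for the large and -0.180 to 0.320 for the small subunit; the cause was not tested. With the replicate block as a sign-flip test over 3 pairs, the shares had exact p of 0.5, 0.25 and 1 for all, large and small. The median member difference ranged from -0.076 to 0.064 over left-out libraries and pairs. Members higher in every pair numbered 16 to 30 and lower 26 to 31 with 1 pair left out, where the shares over all tested symbols were also higher, at 27.5% to 34.8% and 28.8% to 33.9%. With 3 libraries a group, no exact permutation p can fall under 0.1. Members with a tract of 8 bases or more fell from 20 to 13 under the tract rule as first run.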
